A study of Mus musculus with 10 samples.

Results

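A stretch of mouse chromosome 14 holding the retinoblastoma gene Rb1 was examined gene by gene in pancreatic tumors of mice that drank regular or dextrose water. Its genes were chosen by position, as every gene lying wholly within chr14:70217865-77875125 (GRCm38, GENCODE M21), and by abundance, with an average of 50 normalized counts or more over the 10 tumors. The bounds were selected on the measured difference between the groups of tumors, so that the calls given below, from a fit over all genes, describe these values and are no independent evidence of a difference. Of the 55359 genes in the table, 39 met the rule. The block lists 119 genes, of which 86 had a read in some tumor and 33 had none.

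RNA was sequenced from 10 tumors grown from KPC K8484 cells, a luciferase-carrying line of mouse pancreatic cancer that arose in a mouse carrying Trp53 R172H/+ and Pdx1-Cre among its alleles. The sample titles call the tumors PDX (patient-derived xenografts), while the paper describes orthotopic KPC tumors, and the identifiers are those of mouse genes. Both groups were immunocompetent C57BL/6 mice (C57BL/6 J in the methods), injected in the pancreas at 10 weeks of age. The methods give both sexes for orthotopic experiments in general, and no label gives the sex of the mouse behind each column. Reads of Y-linked genes are given below. The 5 CTRL tumors came from normoglycemic mice on regular water, and the 5 D30 tumors from mice given water with 30% dextrose for 14 days. All tumors came from this 1 line, so the model stands for 1 cancer genome, and each sample is bulk tissue that also holds host cells. Tumors carry the names of their columns, N1, N2, N4, N5 and N6 for CTRL and T1, T2, T4, T5 and T7 for D30, and values are always given in that order. The columns could not be tied to single animals.

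Genes that sit side by side on a chromosome share its copy number, and they may share regulatory elements or open chromatin. Neighboring genes that point away from each other, head to head, can be transcribed from a common promoter region. Rb1, the best known gene of the block, encodes a tumor suppressor that holds E2F transcription factors in check until cyclin-dependent kinases release them. In human, genes of the lower end of the block, such as HR and BMP1, and genes of its upper end, such as RB1 and TPT1, lie on different chromosomes.

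The depth ranged from 29192261 to 42122304 reads per tumor. Across the 24560 genes tested, D30 tumors had 344 genes called higher and 334 called lower (adjusted p under 0.05, limma), while 240 of 864 calls were higher when the tumors were scaled by library size. N1 and T4 stood apart from the other libraries. Over expressed genes of the whole genome, log2 values fell with GC content by 0.45 per 10 points in N1 and by 0.82 in T4, while the other tumors had slopes of 0.05 to 0.34. T4 also had a slope of -0.48 per doubling of transcript length, and it was the only tumor with reads of Y-linked genes, 841 in all. All CTRL tumors and the other D30 tumors had 0 such reads, and the part of host sex in the results was not tested. T5 had reads in the fewest genes, 20482, and the highest summed level of the erythroid markers, 171591 normalized counts against 3759 to 11210.4 in the other D30 tumors. Some summary values are therefore given with and without N1 and T4, and single genes without 1 of them where that changed a call or a direction. Of the 7 epithelial markers chosen here for tumor cells, Krt8, Krt18, Krt19, Krt7 and Cdh1 were abundant, while Epcam and Sox9 had means of only 50.6 and 72.0 normalized counts.

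Along the block the genes fell into 2 runs on either side of the widest gap between neighbors, 1.65 Mb from the end of Dok2 to the start of Gm9195. This split was made after the values were seen. The proximal stretch, nearer the centromere, has 13 genes from Ppp3cc to Dok2, and the distal stretch has 26 genes from Gm9195 to Dnajc15. All 39 genes entered the fit over all genes. Against CTRL tumors, 33 of them were higher in D30 and 6 were lower. Their median log2 fold change was 0.59, beside -0.06 over all genes tested and -0.025 over the 13550 genes with a mean of at least 50. The median was 0.25 in the proximal stretch, where 9 of 13 genes were higher, and 0.89 in the distal stretch, where 24 of 26 were. In the distal stretch 9 genes were called higher, 9 of the 39 in all, with 1.4% of all genes tested called higher. With 1.36% of all genes tested called lower, 0 of the 39 were, by limma, edgeR or DESeq2. At an unadjusted p under 0.05 were 19 of the 39, all higher, and 17.3% of all genes tested. The other tools called 7 (edgeR, 2.61% of all genes called) and 15 (DESeq2, 8.76% called, 5.08% higher), all higher. The 5 D30 values lay above all 5 CTRL values for 6 genes (2.87% of all genes tested), and lay below them for 0 (3.32%). All genes tested include genes with means under 50. Of the 13550 genes with a mean of at least 50, limma called 293 higher and 201 lower. Among these 13550, 2656 had an unadjusted p under 0.05, and D30 values lay wholly above CTRL for 557 and wholly below for 521. Since the bounds were drawn with this contrast known, nothing is read from these shares.

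**Figure D1:**
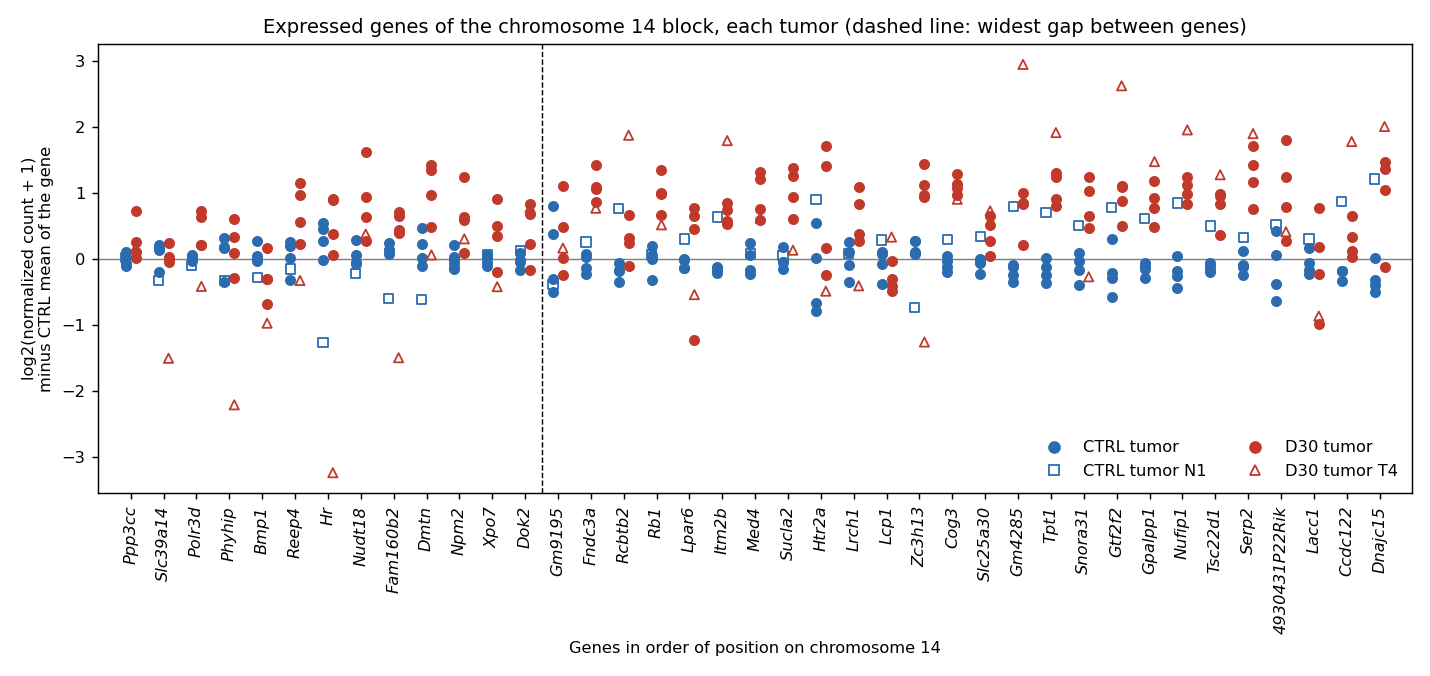
Each point is 1 tumor's log2(normalized count + 1) minus the mean of the 5 CTRL tumors for that gene, for the 39 genes in order of position; blue is CTRL, red is D30, and open squares and triangles are N1 and T4. Right of the dashed line, which marks the widest gap, most D30 points lie above 0 and N1 is often the highest CTRL tumor, while T4 is the lowest tumor for Hr, Phyhip and Slc39a14 and the highest for Gm4285, Gtf2f2 and Tpt1.

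Promoter sequences from RefSeq (GRCm38.p6, 250 bases before to 50 after each start) were matched for 21 of the 39 genes, which have 29 promoters in all. All 21 lie in the distal stretch. No promoter was matched for Rb1, Fndc3a, Gpalpp1 or any gene of the proximal stretch. The promoters of 5 genes are shown, both entries in the case of Serp2. Tpt1, Nufip1 and Lacc1 each stand head to head with a neighbor, and their windows reach over or close to the start of the partner gene. Cog3 and Serp2 were called higher in every alternative fit. Lines run 5′ to 3′ on the gene's own strand, and capitals mark matches on either strand to CCAAT, to the GC box GGGCGG or to the ETS core CCGGAAG.
Tpt1, plus strand, chr14:75845006-75845305: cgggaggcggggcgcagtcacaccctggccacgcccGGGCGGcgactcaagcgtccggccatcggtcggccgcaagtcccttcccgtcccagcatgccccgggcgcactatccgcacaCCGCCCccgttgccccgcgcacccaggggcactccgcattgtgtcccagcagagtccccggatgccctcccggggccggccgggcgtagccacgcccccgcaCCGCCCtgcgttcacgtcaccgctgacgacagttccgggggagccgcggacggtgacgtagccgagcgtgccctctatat
Nufip1, plus strand, chr14:76110641-76110940: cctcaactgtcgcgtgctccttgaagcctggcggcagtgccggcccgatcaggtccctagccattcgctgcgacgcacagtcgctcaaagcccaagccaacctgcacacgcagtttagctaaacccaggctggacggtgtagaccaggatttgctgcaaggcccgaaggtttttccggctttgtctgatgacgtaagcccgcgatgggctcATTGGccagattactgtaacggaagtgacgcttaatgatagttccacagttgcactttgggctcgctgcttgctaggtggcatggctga
Lacc1, minus strand, chr14:77036568-77036867: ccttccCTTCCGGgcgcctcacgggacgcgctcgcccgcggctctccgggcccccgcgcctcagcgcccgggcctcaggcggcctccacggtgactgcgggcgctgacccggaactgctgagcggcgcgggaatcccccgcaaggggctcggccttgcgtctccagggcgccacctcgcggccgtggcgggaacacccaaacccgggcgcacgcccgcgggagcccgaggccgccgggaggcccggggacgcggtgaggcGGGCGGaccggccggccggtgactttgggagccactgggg
Cog3, minus strand, chr14:75754444-75754743: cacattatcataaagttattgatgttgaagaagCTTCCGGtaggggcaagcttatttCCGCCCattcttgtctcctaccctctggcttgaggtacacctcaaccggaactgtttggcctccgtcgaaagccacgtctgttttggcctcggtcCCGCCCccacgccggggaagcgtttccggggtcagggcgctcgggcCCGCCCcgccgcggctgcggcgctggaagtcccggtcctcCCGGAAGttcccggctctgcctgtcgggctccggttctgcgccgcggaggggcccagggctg
Serp2, minus strand, chr14:76556867-76557166: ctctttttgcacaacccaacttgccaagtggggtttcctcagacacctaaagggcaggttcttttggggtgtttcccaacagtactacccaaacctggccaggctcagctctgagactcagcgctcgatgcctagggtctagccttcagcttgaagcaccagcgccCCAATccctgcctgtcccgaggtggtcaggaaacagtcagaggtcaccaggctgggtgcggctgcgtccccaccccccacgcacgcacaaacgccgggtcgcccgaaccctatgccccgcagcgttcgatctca
Serp2, second entry, minus strand, chr14:76556638-76556937: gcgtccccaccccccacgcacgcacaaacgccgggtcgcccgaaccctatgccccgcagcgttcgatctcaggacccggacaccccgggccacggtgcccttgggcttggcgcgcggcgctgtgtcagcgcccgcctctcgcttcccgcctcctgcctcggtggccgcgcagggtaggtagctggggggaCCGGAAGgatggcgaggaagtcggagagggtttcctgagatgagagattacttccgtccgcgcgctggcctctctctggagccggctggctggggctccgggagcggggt

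These letters were counted in all 32851 promoters of the same length. GGGCGG was found in 17 of the 29 matched promoters, all of distal genes, and in 35.7% of all promoters. CCGGAAG was found in 6 of 29 and 8.86%, and CCAAT in 8 of 29 and 37.4%. TATAAA, the TATA box, was found in 1 of 29 and in 13.6% of all. TTTNGCG, an E2F core, was found in 1 of 29, that of Gtf2f2, and in 4.22% of all. None of the 5 motifs contains another. Some of the 29 windows overlap, such as both of Zc3h13 and those of Lacc1 and Ccdc122, so 1 site can count in more than 1 promoter. Tsc22d1 alone has 5 of the 29. A match is a run of letters and says nothing of a factor's binding in these tumors.

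In the distal stretch 3 genes were called higher in all 21 alternative fits. Fndc3a (ENSMUSG00000033487, chr14:72537946-72710003, minus strand), a fibronectin type III domain protein known for its part in sperm development, had 3019, 2170.1, 2584, 2657 and 2295 normalized counts in CTRL tumors and 6760.3, 5394, 4304, 5278 and 4577 in D30 tumors. Every D30 value was above every CTRL value, and the log2 fold change was 1.04 ± 0.18 (SE, n = 5 per group, as throughout, on the log2(normalized count + 1) scale). Cog3 (ENSMUSG00000034893, chr14:75702350-75754517, minus strand) encodes a subunit of the COG complex, which tethers vesicles at the Golgi. Its values were 1498, 1063, 1268, 1200.4 and 1129 in CTRL and 2977, 2392, 2288, 2697 and 2587 in D30 tumors. The groups did not overlap, N1 was the highest CTRL tumor, and the log2 fold change was 1.07 ± 0.16, with the smallest SE of all 39 genes. Serp2 (ENSMUSG00000052584, chr14:76532814-76556889, minus strand), of a small family of stress-associated endoplasmic reticulum proteins, had the largest log2 fold change of the block, 1.39 ± 0.26. It measured 199.9, 150.4, 147, 135 and 174 in CTRL and 361, 269, 597, 523 and 427 in D30 tumors, again with no overlap.

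Genes of the transcription machinery and the cell cycle lay in the same stretch. Rb1 (ENSMUSG00000022105, chr14:73183673-73325822, minus strand) measured 708, 540.0, 777, 673 and 702 in CTRL and 1723, 1337, 966, 1348 and 1068 in D30 tumors. All D30 values exceeded all CTRL values, T4 being the lowest of the D30 tumors, and the log2 fold change was 0.90 ± 0.20. Med4, a subunit of the Mediator complex that bridges transcription factors and RNA polymerase II, had 595, 480.0, 665, 498 and 587 in CTRL and 1293, 945, 861, 845 and 1393 in D30 tumors. The groups did not overlap here either, and the log2 fold change was 0.89 ± 0.21. Limma called Rb1 and Med4 with all tumors, but neither without N1 (adjusted p 0.059 and 0.065). The calls of both were likewise lost when any other CTRL tumor, T1 or T2 was left out, and that of Med4 also without T7. Gtf2f2 encodes the smaller subunit of the general transcription factor TFIIF. Its values were 734, 351, 528, 287 and 370.5 in CTRL and 918, 608, 2638, 916 and 788 in D30 tumors. T4 stood far above the other D30 tumors, the lowest D30 tumor T2 was below N1, and the log2 fold change of 1.24 ± 0.37 was called by DESeq2 but not by limma or edgeR. Zc3h13, a part of the complex that methylates adenosines in mRNA, had 527, 949.9, 1065, 1064 and 929 in CTRL and 2387, 1729, 368, 1678 and 1907 in D30 tumors. N1 and T4 were the lowest tumors of their groups, and the 4 other D30 tumors lay above all CTRL tumors. Its log2 fold change was 0.64 ± 0.43, and without T4 it was 1.11 and called.

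Tpt1 was by far the most abundant gene per length, with 110155 normalized counts per kilobase over the 10 tumors, followed by Itm2b with 15942 and Tsc22d1 with 2531. It encodes the translationally controlled tumor protein, a growth-related protein made at high levels in dividing cells. Tpt1 (ENSMUSG00000060126, chr14:75845093-75848525, plus strand) had 120541, 62581, 74932, 57736 and 68302 normalized counts in CTRL and 138809, 128746, 278485, 181845 and 175737 in D30 tumors. N1 reached well above the other 4 CTRL tumors but stayed below the lowest D30 tumor, and the log2 fold change was 1.23 ± 0.28. The table lists 6 Tpt1 pseudogenes, 4 of them with reads and a summed mean of 1595 normalized counts, so reads of Tpt1 may in part be shared with these copies. Snora31, a small nucleolar RNA of the class that guides pseudouridylation, lies inside Tpt1 on the same strand. It measured 163, 112, 102, 86.8 and 121 in CTRL and 181, 159, 94.8, 234 and 272 in D30 tumors. The log2 difference was 0.62 ± 0.32, and its reads could not be separated from those of its host. Gm4285, an antisense transcript that starts 129 bases from Tpt1 on the other strand, had 164, 88.2, 79.5, 73.5 and 86.4 in CTRL and 188, 167, 729, 171 and 109 in D30 tumors. T4 was again far above the other D30 tumors, and the log2 fold change was 1.16 ± 0.45.

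Itm2b and Tsc22d1 were the next most abundant. Itm2b, a transmembrane protein whose human gene is mutated in familial dementias, had 29643, 16552, 17532, 17317 and 17062 in CTRL and 34190.1, 27621, 66019, 28389.9 and 31997 in D30 tumors. N1 overlapped the D30 range, while the 4 other CTRL tumors lay between 16552 and 17532, and the log2 fold change was 0.90 ± 0.27. Tsc22d1, a leucine zipper protein first found as a target of transforming growth factor beta, had 12362, 7899.6, 8412, 8181 and 7614 in CTRL and 17200.5, 11204, 21142, 15589.8 and 16936 in D30 tumors. T2 was below N1, so the groups overlapped by that 1 pair, and the log2 fold change of 0.88 ± 0.21 was called.

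Genes of mitochondria also lie in the distal stretch. Sucla2, the beta subunit of the ATP-forming succinyl-CoA ligase of the tricarboxylic acid cycle, had 1194, 1113, 1305, 1037 and 1119 in CTRL and 2751, 2208, 1261, 1741 and 2972 in D30 tumors. T4 was the only D30 tumor within the CTRL range, and the log2 fold change was 0.86 ± 0.23. Dnajc15, a J-domain protein of the inner membrane, had 1049.9, 319.5, 364, 343 and 459 in CTRL and 1254, 940.4, 1822, 418 and 1169.6 in D30 tumors. N1 was far above the other CTRL tumors and T5 was within their range. The log2 fold change was 1.15 ± 0.40. Slc25a30, a carrier of the inner membrane, differed less, by 0.44 ± 0.19, with 1338 to 1978 in CTRL and 1611 to 2598 in D30 tumors. Limma and edgeR called 0 of the 3, though all 3 had an unadjusted p under 0.05 in limma, and DESeq2 called Sucla2. Limma called Sucla2 without T4 and Dnajc15 without T5.

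Head-to-head pairs allowed neighbors to be compared directly. Gpalpp1 (minus strand) and Nufip1 (plus strand) start 131 bases apart, and both starts fall in the Nufip1 sequence shown above. Gpalpp1 had 1425, 763, 869.8, 893 and 842 in CTRL and 2111, 1593, 2593, 1312 and 1762 in D30 tumors. Nufip1, an RNA-binding protein that takes part in the assembly of small nucleolar ribonucleoproteins, had 988, 406, 566, 458 and 483 in CTRL and 1089.9, 976, 2128, 1297 and 1201 in D30 tumors. Both were called higher, with log2 fold changes of 0.96 ± 0.23 and 1.23 ± 0.28, and in both N1 was above the lowest D30 tumor. Their log2 values had a Pearson r of 0.93 over the 10 tumors, which share the group difference and the libraries. Gm4285 and Tpt1 had an r of 0.85. Lacc1 and Ccdc122, which overlap by 132 bases, did not go together in this way (r = -0.18). Ccdc122 had a log2 fold change of 0.58 ± 0.35, and Lacc1 one of -0.23 ± 0.32. Xpo7 and Dok2 of the proximal stretch, which overlap by 592 bases, lay between with an r of 0.46.

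Lacc1, Lcp1 and Lpar6 had the lowest log2 fold changes of the distal stretch, though they lie among genes that were higher. Lcp1, the leukocyte plastin that bundles actin, had 2490.1, 2157, 2188, 1567 and 1928 in CTRL and 1456, 1654, 2568, 1991 and 1532 in D30 tumors. D30 differed from CTRL by a log2 fold change of -0.18 ± 0.20. N1 and T4 had the highest Lcp1 of their groups. They also had the highest summed level of 13 leukocyte markers, 43645 in N1 and 57746 in T4, against 14244 to 28483 in the other 8 tumors, and the part of this in the result was not tested. Lacc1, an enzyme of macrophages, had 551, 500.2, 382, 397 and 426 in CTRL and 763, 380.3, 245, 226 and 506 in D30 tumors. T1 was above all CTRL tumors, T4 and T5 were below them and T2 was just below. Lpar6, a receptor for lysophosphatidic acid, lies within Rb1 on the other strand. Its values were 691, 507, 512, 552 and 558 in CTRL and 952, 766, 385, 239 and 883 in D30 tumors. T1, T2 and T7 were above the CTRL tumors and T4 and T5 below, so that the log2 fold change of 0.02 ± 0.35 averages values on both sides.

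The other genes of the distal stretch were read at lower levels or varied more. Htr2a, a serotonin receptor, ranged from 34.5 to 114 in CTRL and from 42.8 to 200.5 in D30 tumors. On the log2 scale the difference was 0.51 ± 0.50. Lrch1 ranged from 93.0 to 142 in CTRL and from 89.1 to 252 in D30 tumors (0.43 ± 0.30). Gm9195 had 73.8 ± 31.5 in CTRL and 90.5 ± 36.1 in D30 tumors (mean ± SD), a change of 0.31 ± 0.36. Rcbtb2, which overlaps Rb1, had a log2 fold change of 0.59 ± 0.34, with N1 and T4 the highest of their groups at 1319 and 2843. The long noncoding RNA 4930431P22Rik had a log2 fold change of 0.90 ± 0.37. Of the 39 genes, 15 overlap another gene with reads, so their counts are uncertain where the counting split or shared those reads.

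The proximal stretch spans 0.56 Mb, and 0 of its 13 genes were called by limma or by edgeR, with 3 at an unadjusted p under 0.05, while DESeq2 called 2, Nudt18 and Dmtn. Over all genes tested these shares were 17.3% and 8.76%. Without T4, limma called both Nudt18 and Dmtn. Nudt18, a Nudix hydrolase that cleaves oxidized nucleotides, had 483, 533, 681, 542 and 582 in CTRL and 872, 674, 728, 1712 and 1068 in D30 tumors. T2 was just below the highest CTRL tumor, and the log2 fold change was 0.76 ± 0.25. Dmtn encodes dematin, an actin-bundling protein of the red cell membrane skeleton. It had 105, 151, 224, 190.3 and 164 in CTRL and 319, 228, 169, 434 and 412 in D30 tumors. Its log2 fold change was 0.86 ± 0.31. T5, the highest for both genes, was the tumor with the high erythroid markers, and the part of this in the result was not tested. Dok2, an adaptor protein of tyrosine kinase signaling, had 3647, 3238, 3562, 2969 and 3306 in CTRL and 5906, 3904, 5715, 2957 and 5319 in D30 tumors. The log2 difference was 0.47 ± 0.21. T1, T4 and T7 were well above the CTRL range, T2 was just above it and T5 just below.

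Lower values in D30 tumors were found for 4 proximal genes. Bmp1, the protease that trims procollagen, had 7795, 11381, 9232, 9746 and 9422 in CTRL and 7616, 5900.3, 4817, 10646 and 7639.8 in D30 tumors. T1, T2, T4 and T7 lay below the lowest CTRL tumor, T5 lay within the CTRL range, and the log2 fold change was -0.42 ± 0.22. The summed level of 8 fibroblast markers ranged from 77452 to 137709 in CTRL and from 28178 to 103854 in D30 tumors, 0 of 8 were higher in D30, and the part of this in the result was not tested. Slc39a14, a zinc and manganese importer, had 1969, 2806, 2146, 2855 and 2722 in CTRL and 2522, 2381, 872, 2913 and 2477 in D30 tumors. The 4 D30 tumors other than T4 lay within or just above the CTRL range, and the log2 fold change was -0.26 ± 0.30, or 0.054 without T4. Hr, the hairless corepressor, had 562, 1332, 1629.9, 1972 and 1835 in CTRL and 2502, 1755, 142, 1407 and 2512 in D30 tumors. Hr has the highest GC content of the block, 61.6%, and N1 and T4 were the lowest of their groups. D30 differed from CTRL by a log2 fold change of -0.20 ± 0.67 with all tumors and 0.56 when T4 was left out. Phyhip had one of -0.29 ± 0.46 and 0.18 without T4.

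The remaining proximal genes were not called by any of the 3 tools. Ppp3cc, a catalytic subunit of calcineurin, had a log2 fold change of 0.25 ± 0.22 and was highest in T5 at 342. Polr3d, a subunit of RNA polymerase III, had one of 0.27 ± 0.22, Reep4, which clears endoplasmic reticulum from mitotic chromosomes, one of 0.51 ± 0.27, and Npm2, a histone chaperone of the oocyte, one of 0.57 ± 0.29. Fam160b2 had 0.14 ± 0.37, which was 0.55 without T4 and -0.0093 without N1. Xpo7, a nuclear transport receptor, had 3874, 3573, 3762, 3856 and 3419 in CTRL and 6927, 4718, 2761, 3222 and 5209 in D30 tumors. On the log2 scale the difference was 0.23 ± 0.23 and became 0.55 after correction for GC content and length. The D30 tumors spread to both sides of the narrow CTRL range.

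The mean deviation over the genes of a stretch summarised each tumor. For the distal stretch, the mean over genes of log2(normalized count + 1) minus the gene's 10-tumor mean was 0.04, -0.47, -0.39, -0.60 and -0.46 in CTRL tumors and 0.58, 0.14, 0.48, 0.27 and 0.40 in D30 tumors. N1 was closer to T2 than to the next CTRL tumor. For the proximal stretch the CTRL tumors ranged from -0.40 to -0.01 and the D30 tumors from -0.79 in T4 to 0.51, so the groups overlapped. After correction for GC content and length N1 moved from 0.04 to -0.13 in the distal stretch and T4 from -0.79 to -0.27 in the proximal stretch. The difference between groups in the distal stretch was 0.75 before and 0.77 after the correction. Without N1 and T4, a choice made after the data were seen, the 4 D30 tumors lay above the 4 CTRL tumors for 21 of 39 genes, 18 of them in the distal stretch (7.74% of all genes tested). In that fit 15 of the 39 were called higher (3.59% of all genes tested). The median log2 fold change was then 0.41 in the proximal and 0.98 in the distal stretch. The log2 fold changes that moved most were those of Htr2a (to 0.99), Hr (to 0.25), Phyhip (to 0.10) and Snora31 (to 0.97).

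**Figure D2:**
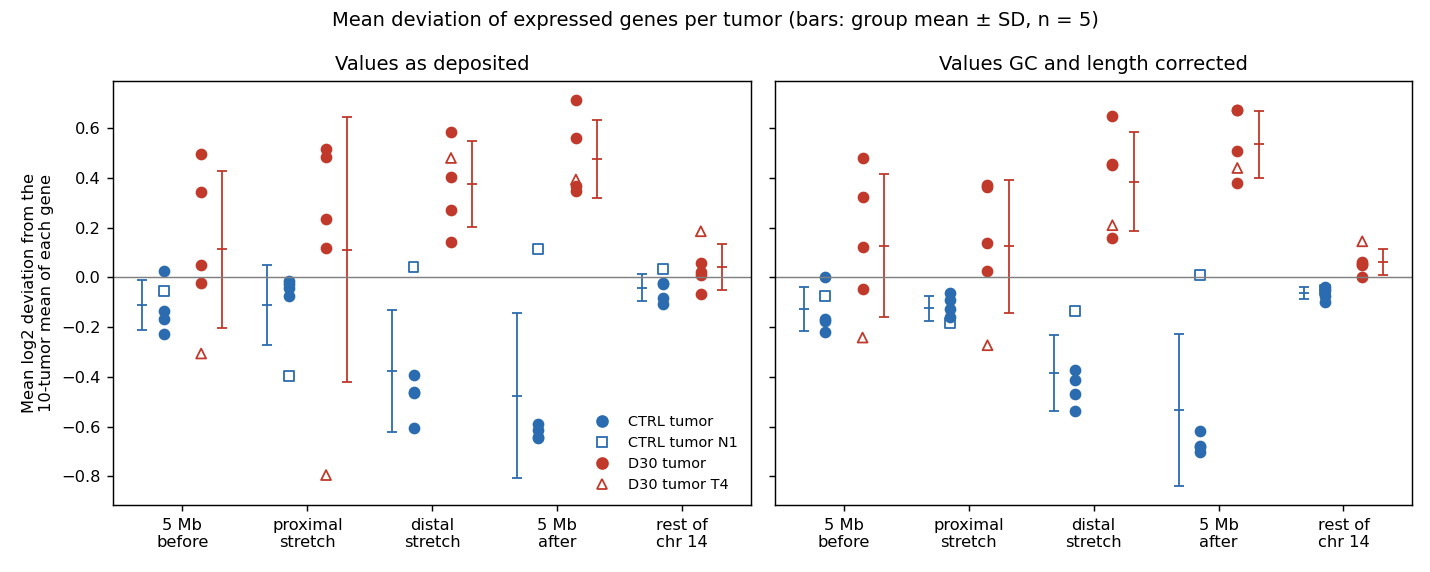
Mean log2 deviation per tumor over the expressed genes of each segment (points; blue CTRL, red D30, open squares N1, open triangles T4), with group mean ± SD beside them, as deposited (left) and corrected for GC content and length (right). In the distal stretch and the 5 Mb after the block the D30 tumors lie above the CTRL tumors in both panels, while in the proximal stretch T4 lies below all CTRL tumors in both panels.

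Summed over 7 epithelial markers, D30 tumors had 341308 to 475874 normalized counts and CTRL tumors 209909 to 335527, with no overlap. In D30 tumors 6 of the 7 were higher, at a median log2 fold change of 0.60, with Sox9 at 0.14 ± 0.67. Epcam was lower, at -3.17 ± 0.94, with a mean of 85.1 in CTRL and 16.1 in D30 tumors. Limma and edgeR called 0 of the 7, DESeq2 called Krt18 and Krt7, and all but Sox9 had an unadjusted p under 0.05. The summed level of 6 endothelial markers went the other way, 10873.6 to 18119.8 in CTRL and 5399 to 9713 in D30 tumors, with Cdh5 called lower. These shifts run along the groups, and their part in the block's differences was not tested. In bulk tissue, fewer cells of a type and less RNA per cell cannot be told apart. Leukocyte markers overlapped between the groups, with 4 of 13 higher and 9 lower, and Csf1r called lower. Of 6 acinar markers 5 were lower in D30, and their sums ranged from 268 to 47740 in CTRL and from 144 to 4197 in D30 tumors. No marker list had a gene at 0 in all tumors.

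The genome-wide drift of N1 and T4 with GC content was seen within the block. For N1, the deviation from the 4 other CTRL tumors had a Spearman rho of -0.57 with GC content across the 39 genes, and 27 genes were above 0. For T4 the rho was -0.30 and 14 genes were above 0, from -3.79 for Hr to 2.22 for Gm4285. With transcript length the rho was -0.31 for N1 and -0.30 for T4, so in T4 these values do not separate GC content from length. Gene by gene the deviations of N1 and T4 had a rho of 0.70. These are correlations across genes of 2 libraries, and genes are not independent replicates. GC content was higher in the proximal stretch, with a median of 54.8% against 45.6% in the distal stretch.

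**Figure D3:**
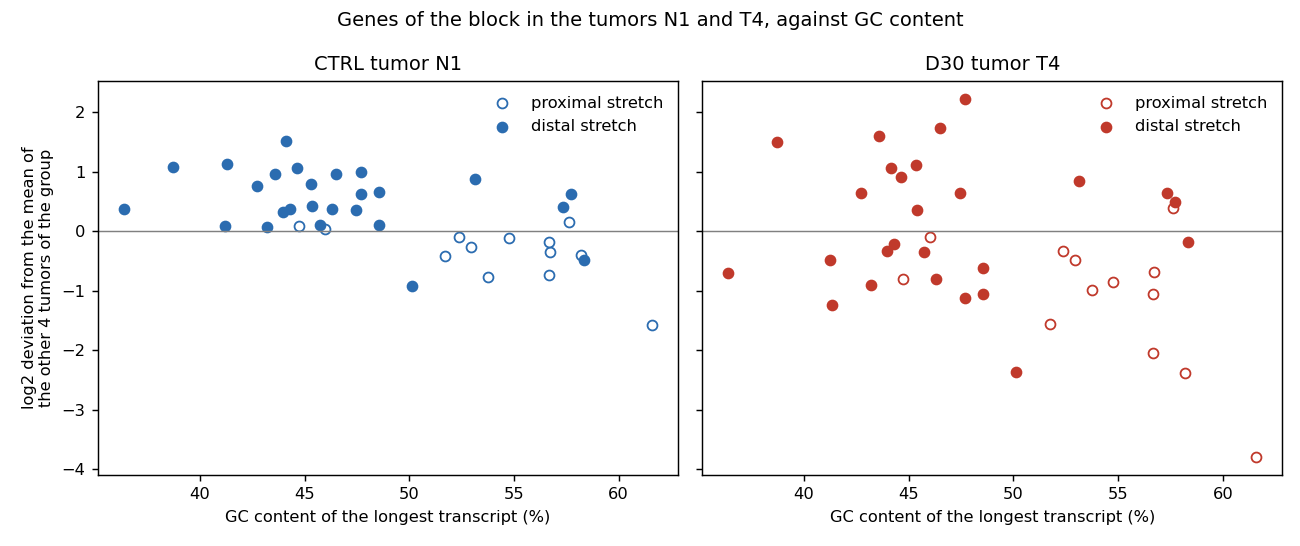
Deviation of N1 (left) and T4 (right) from the mean of the 4 other tumors of their group, on the log2 scale, against the GC content of each gene's longest transcript; open points are the proximal and filled points the distal stretch. Proximal genes, which have higher GC content, lie mostly below 0 in both tumors, with Hr lowest at -3.79 in T4.

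Within groups, genes of the distal stretch moved together weakly. After each group's mean was subtracted, the median Pearson r over its 325 gene pairs was 0.17 across the 10 tumors, with 60.3% of pairs above 0, against 0.05 over pairs of expressed genes of chromosome 14 outside the block. Without N1 and T4 it was 0.23, and it was 0.32 when values were also corrected for GC content and length. Pairs of a proximal with a distal gene had 0.01 with all tumors, 0.20 without N1 and T4 and 0.23 with the correction as well. Without N1 and T4, pairs outside the block had 0.03, with or without the correction. Pairs of a distal gene with one outside the block then had 0.09, and 0.10 with the correction. The proximal stretch had a median of 0.53 over 78 pairs with all tumors, but only 0.14 without N1 and T4 and 0.04 with the correction as well. The pairs share libraries and genes.

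The difference did not stop at the upper bound. Beyond it, 11 expressed genes lie within 5 Mb, from Epsti1 to Sugt1. Of these 10 were higher in D30, at a median log2 fold change of 1.04, and 4 were called higher (1.4% of all genes tested). They are named here after their values were seen. The nearest, Epsti1, had 906, 153, 169, 145 and 167 in CTRL and 1559, 924, 770.3, 251 and 1043 in D30 tumors. Its log2 fold change was 1.80 ± 0.55 and was not called. N1 lay among the D30 tumors, and T5 was close to the 4 low CTRL tumors. Naa16, an auxiliary subunit of an N-terminal acetyltransferase, had 827, 429, 417, 498 and 433 in CTRL and 1215, 1015, 929.9, 1125 and 1216 in D30 tumors, with no overlap. The log2 fold change was 1.12 ± 0.22, and those of Mtrf1, Wbp4 and Sugt1 were 1.29, 1.04 and 1.08. After Sugt1 the next expressed gene, Pcdh17, starts 14.2 Mb from the block's start and had a log2 fold change of -1.19 ± 0.52, followed by Diaph3 with 0.11 and Tdrd3 with 0.14. The gene after these, Rps3a2, at 17.9 Mb, was called higher, at 1.11 ± 0.27, with no overlap. In the 5 Mb before the block, 26 of 37 genes were higher, and the median was 0.33. There 1 was called higher and 2 lower, beside 1.4% and 1.36% of all genes tested. Sorbs3, the nearest, had a log2 fold change of -0.13 ± 0.38. The 379 other expressed genes of chromosome 14 had a median of 0.12.

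**Figure D4:**
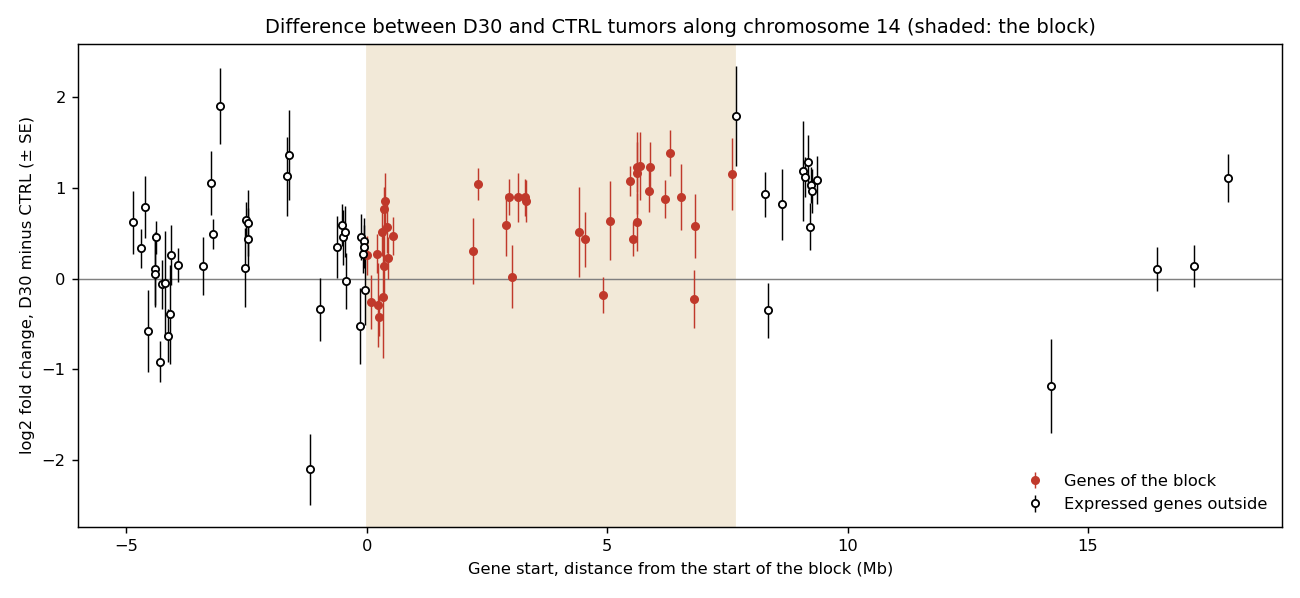
Log2 fold change of D30 against CTRL (± SE) of each expressed gene against its start, in Mb from the block's start; filled red points are the 39 genes, open points are genes outside, and the shading marks the block. The points of the distal stretch and of the genes up to 9.4 Mb lie mostly around 1, with medians of 0.89 and 1.04, and the 4 genes from 14.2 to 17.9 Mb lie at -1.19, 0.11, 0.14 and 1.11.

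At the abundance limit, the 2 genes just inside were Htr2a and Gm9195, with means of 85.9 and 82.2 normalized counts. Just outside were Fgf17, a fibroblast growth factor, with a mean of 39.7 and a log2 fold change of 1.37 ± 0.54, and Enox1 with 34.8 and -0.27 ± 0.40. Fgf17 lies in the proximal stretch and had 26.3, 7.95, 28.3, 20.4 and 18.0 in CTRL and 77.1, 58.4, 13.9, 46.9 and 100.1 in D30 tumors. Of the 47 genes of the block with reads but a mean under 50, 31 were tested, 19 were higher and 12 lower. Limma and edgeR called 0 of them, with 6 of 31 at an unadjusted p under 0.05, near the 17.3% of all genes tested. DESeq2 called 4, of which Fgf17, Gm10132 and E130202H07Rik were higher and Gfra2 was lower, at -2.27 ± 0.70. They are named after their values were seen.

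The Rb and E2F genes outside the block were described beside Rb1, since they act with it. Of the 39 genes in these 4 lists, limma and edgeR called 0, with 2 at an unadjusted p under 0.05, and DESeq2 called 1, E2f3. Among 8 inhibitors and partners 3 were higher and 5 lower, and the median log2 fold change was -0.13. Within this list Cdkn1a, the p21 inhibitor, had 1.02 ± 0.54, and Rbl1 and Rbl2, relatives of Rb1, had -0.49 ± 0.25 and -0.37 ± 0.16. All 8 kinases and cyclins were lower, with a median of -0.29 and values from -0.57 for Ccne1 to -0.05 for Cdk4. Of 10 E2F and DP factors 2 were higher and 8 lower (median -0.27). Of 13 E2F targets, such as the Mcm genes of the replicative helicase, 3 were higher and 10 lower (median -0.28). Summed levels of the targets overlapped between groups, with 30288 to 42889 normalized counts in CTRL and 25569 to 49247 in D30 tumors.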

How the data were processed

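RNA-sequencing was done on 5 CTRL and 5 D30 tumors. The authors prepared strand-specific libraries, trimmed the read pairs, aligned them with STAR 2.7.0e and named RSEM and DESeq2. The methods name a human reference build and the submitters' processing notes GRCm39, while the annotation and counting settings are not given in the sources used here. The deposited signal per gene and tumor is a normalized count, the reads divided by 1 size factor per tumor. Whole reads were recovered from it for 100% of values within 0.02. Groups come from the letter of each column (N for normoglycemic, T for the only other group).

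Genes were placed with GENCODE M21 (GRCm38), which named 52083 of 55359 identifiers (94.1%). limma 3.58.1 (R 4.3.3), with a mean-variance trend on log2(normalized count + 1), was fitted to the 24560 genes with a mean of at least 1, with adjustment by Benjamini-Hochberg over all of them. A call is an adjusted p under 0.05. The pseudocount makes fold changes of low genes too small. edgeR 4.0.16 and DESeq2 1.42.0 on recovered reads, other scalings, pseudocounts, filters and each tumor left out were alternatives. A linear correction of each tumor's log2 values for GC content and transcript length, and a fit without N1 and T4, were added after the data were seen. The limma step was tested on simulated counts.

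The bounds, members and gene lists were chosen with earlier results of these data known. Genes were named by fold change (the 8 highest, the 8 lowest and the 5 least moved), by mean (the 5 highest), by role and at the edges. The other members are named so that all are accounted for. One gene of the block is not reported here. Spread between columns may be technical, since no column could be tied to an animal.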

Additional observations from a re-analysis of the deposited data

Results flagged for a closer look

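In groups of 5 tumors, a tumor was singled out when its gap to the nearest other tumor was over 0.71 of the group's range (Dixon's 95% critical value). Of 68 groups checked, 16 met this, where chance gives about 1 in 20. N1 accounted for 9, T4 for 6 and T5 for 1.

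Among CTRL tumors N1 was above the others for Itm2b (29643 normalized counts against 16552 to 17532), Tpt1 (120541 against 57736 to 74932) and Tsc22d1 (12362 against 7614 to 8412). It was also above them for Nufip1 (988 against 406 to 566), Dnajc15 (1049.9 against 319.5 to 459), Gm4285 (164 against 73.5 to 88.2) and Lpar6 (691 against 507 to 558). It was below them for Fam160b2 (846 against 1349 to 1514) and Zc3h13 (527 against 929 to 1065).

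Among D30 tumors T4 was above the others for Itm2b (66019 against 27621 to 34190.1), Gtf2f2 (2638 against 608 to 918), Nufip1 (2128 against 976 to 1297) and Gm4285 (729 against 109 to 188). It was below them for Slc39a14 (872 against 2381 to 2913) and Fam160b2 (453 against 1686 to 2082). T5 was above the other D30 tumors for Ppp3cc (342 against 209 to 246).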

How the results depend on the processing

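Over the named genes and alternatives, 676 of 693 log2 fold changes kept their direction, and 0 called ones reversed. Scaling by library size moved the median of all genes from -0.06 to -0.27 on the log2 scale. Under it 5 genes of the block were called, all higher, and the median log2 fold change was 0.37 over the 39 genes, 0.66 in the distal and 0.032 in the proximal stretch (0.64, 0.93 and 0.30 above the median of all genes). DESeq2 on recovered reads called 15 genes and the fit without N1 and T4 called 15, all higher, with a median of 0.81 in the latter. Over all genes these fits called 1135 and 876 higher, against 344. Leaving out 1 tumor gave 3 to 13 genes of the block called, all higher, beside 279 to 1573 calls over all genes, and proximal medians of 0.16 (without T1) to 0.45 (without T4). Only Cog3, Serp2 and Fndc3a were called in each of these fits, and they were the only genes called when N2, N4, N5 or N6 was left out. Tpt1, Nufip1, Rb1, Med4, Gpalpp1 and Tsc22d1 were called in 14, 16, 13, 12, 11 and 10 of 21 alternative fits. The cause was not tested. Other settings kept the counts within 1.5 times, and 0 of the 39 genes were called lower in any fit.

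No paired analysis was possible because the column numbers differ from the labels' replicate numbers. The 33 genes of the block without a read were not detectable at this depth.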
